A study of Mus musculus with 2 samples.

Results

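Genes of sphingolipid and ceramide metabolism were examined in CD45-negative cells of Py8119 tumours from mice with a knockout of Mtdh (KO host) and from mice with wild-type Mtdh (WT host). The members are 36 named genes that make, convert, break down or respond to ceramide and its products. Of these, 35 are among the 12707 genes of the deposited expression table. The expression of Cers4 was not analysed here, and Cers4 enters only the promoter counts. Py8119 is a mouse mammary tumour line from the MMTV-PyMT model. Per the labels the injected tumour cells are wild type for Mtdh in both libraries, and the labelled difference is the host genotype. With 1 library each, host genotype cannot be told apart from differences between animals, tumours or preparations. Mtdh encodes metadherin, a protein that promotes mammary tumour growth and spread. There was 1 RNA-seq library per host genotype, made from live sorted cells after tumour dissociation. Whether tumours were pooled, and which strain, age and sex the hosts had, is not stated in the labels. With no replicates, no p-value was computed. Each value describes this pair of libraries.

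Sphingolipids are built on a long-chain base. Serine palmitoyltransferase makes the base, ceramide synthases attach a fatty acid to it, and a desaturase turns the product into ceramide. Ceramide is converted to sphingomyelin or to glycosphingolipids, or is split by ceramidases to sphingosine, which sphingosine kinases phosphorylate. The product, sphingosine 1-phosphate (S1P), leaves cells through transporters and acts on G protein-coupled receptors. In tumours ceramide is best known for favouring growth arrest and cell death, and S1P for favouring survival, migration and vessel growth.

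Most of the pathway was at similar levels in both libraries, and the wider differences lay in its low-abundance genes. Reads were recovered from the deposited values, and a call was made for a gene when its reads per 1000000 recovered reads (RPM) differed 2-fold or more. Of the 35 genes, 33 had 100 reads or more over both libraries. Of these, 1 was higher in the library from the KO host (Ormdl1), 5 were lower (Ormdl2, Smpd1, Smpd4, Gba2 and Galc) and 27 lay between. Over all 10818 genes with 100 reads or more, 8.91% were 2-fold higher and 12.0% were 2-fold lower. The median log2 ratio, KO host over WT host, was -0.12 over the 33 members and -0.06 over all 10818 genes. In all, 91580 reads fell on the members in the library from the KO host and 106080 in the library from the WT host. These are 3917 RPM for the KO host and 4069 RPM for the WT host.

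The share of genes past 2-fold depends on depth in these libraries, so the members were also read within classes of depth. Among the 4205 genes with 100 to 1000 reads over both libraries, 18.5% were 2-fold higher and 24.8% were 2-fold lower. All 6 counted members lie in this class, which holds 10 members in all. Of the 4205 genes, 313 had 5 reads or fewer in 1 of the libraries. In the class from 1000 to 10000 reads, 3.03% of genes were 2-fold higher and 4.58% were lower, and 0 of the 17 members there were counted either way. Above that, 1.93% were higher and 0.704% were lower, and again 0 of 6 members were counted. The median log2 ratio of members was -0.98 in the lowest class and -0.02 in the middle one, against -0.15 and -0.06 over all genes of those classes. Members with few reads were thus the ones that stood away from a ratio of 1, in a range of depth where many genes do.

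**Figure D1:**
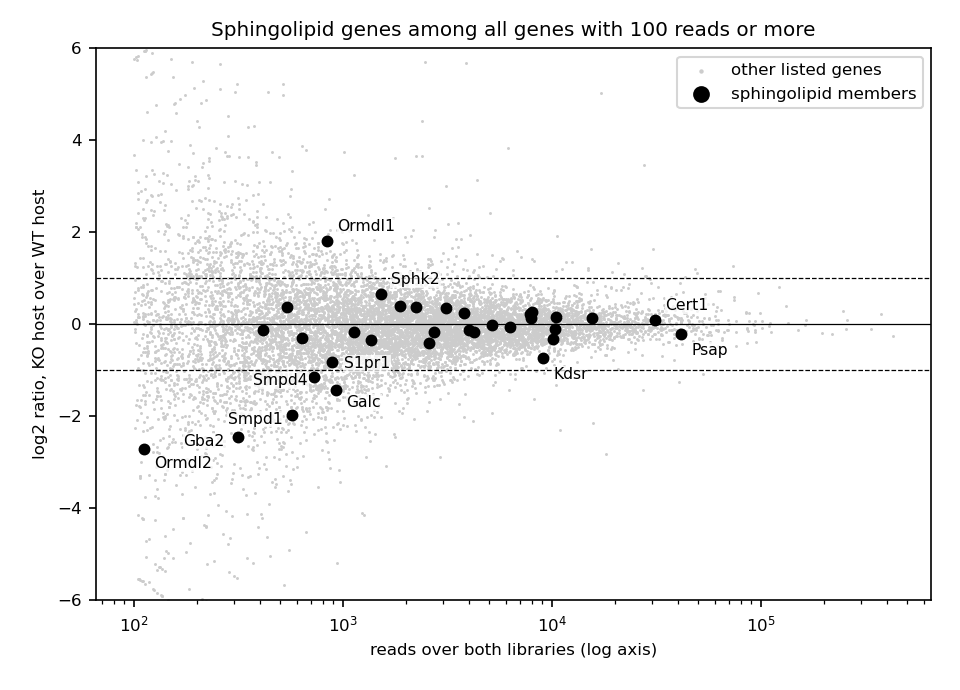
The log2 ratio of RPM, KO host over WT host (vertical axis), against reads over both libraries (horizontal log axis), for members (black) and all other genes with 100 reads or more (grey). The spread narrows from left to right, the 6 members past 2-fold (dashed lines) lie under 1000 reads, and 124 genes outside the axis and 143 listed at 0 in 1 library are not drawn.

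On the authors' own scale, log2 of FPKM + 1, the differences were smaller. Averaged over both libraries, 21 members reached a log2 value of 1, of which 0 were higher by at least 1 and 1 was lower, Smpd1. The same rule counted 2.31% of 6057 genes as higher and 2.64% as lower. Over the 28 members that averaged at least 0.5 the median difference was -0.08, with 11 above 0 and 17 below, against -0.03 over 8309 genes. The authors' FPKM divides by the genomic span of a gene, introns included, which in these members is 1.48 to 58.1 times the exon length. Where that FPKM is under 1, the added 1 shrinks the difference. Galc, for example, had an FPKM of 0.172 in the KO-host library and 0.466 in the WT-host library, and differed by -0.32 on the deposited scale and by -1.44 as a log2 read ratio.

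The ORMDL genes gave the widest contrast within a family. ORMDL proteins sit in the endoplasmic reticulum and hold serine palmitoyltransferase in check when ceramide is plentiful. Ormdl1 (ENSMUSG00000026097, chromosome 1, 53336254 to 53349469, plus strand) had 635 reads in the library from the KO host and 203 in the library from the WT host. Its ratio was 3.49 (95% counting interval 2.97 to 4.11), the only member counted as higher. Ormdl2 (ENSMUSG00000025353, chromosome 10, 128653771 to 128657515, minus strand) had 13.3 reads in the library from the KO host and 98 in the library from the WT host, a ratio of 0.152 (0.0761 to 0.265). Ormdl2 has the fewest reads of the 33 members, some of them shared fractions, and its span overlaps Dnajc14 and Sarnp on the other strand. Ormdl3, the family member best known from asthma genetics, had 268 reads in the KO-host library and 370 in the WT-host library, a ratio of 0.808 (0.687 to 0.948). Summed over the family, ORMDL RNA was at 39.2 RPM in the library from the KO host and 25.7 RPM in the library from the WT host. Per exon length, Ormdl1 had the highest level of the family in the KO-host library, while in the WT-host library Ormdl3 did, at 1.59 times Ormdl1.

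Coordinates are those of the deposited table, whose build is mm39 per the submitters' processing notes. Its stop minus its start equals the listed length in 100% of rows. Either 1 of the ends lies a base outside the gene or the listed length is a base short, which was not tested. Counting intervals cover counting error only and leave out the spread between tumours. They treat reads as independent, which PCR copies without molecular identifiers are not, so they may be too narrow.

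Promoters of the ORMDL genes, and of Smpd1 and Gba2, are shown because Ormdl1, Ormdl2, Smpd1 and Gba2 had ratios far from 1, with Ormdl3 as the family member within 2-fold. Each is the RefSeq window from 250 bases before to 50 after the gene start, 5′ to 3′ on the gene's strand, in build GRCm38.p6. Capitals mark CCAAT boxes (CCAAT) and GC boxes (GGGCGG), searched on both strands. The windows are chr1:53296845-53297144 (plus strand) for Ormdl1, chr10:128821580-128821879 (minus) for Ormdl2, chr11:98587196-98587495 (minus) for Ormdl3, chr7:105554110-105554409 (plus) for Smpd1 and chr4:43578815-43579114 (minus) for Gba2.
Ormdl1: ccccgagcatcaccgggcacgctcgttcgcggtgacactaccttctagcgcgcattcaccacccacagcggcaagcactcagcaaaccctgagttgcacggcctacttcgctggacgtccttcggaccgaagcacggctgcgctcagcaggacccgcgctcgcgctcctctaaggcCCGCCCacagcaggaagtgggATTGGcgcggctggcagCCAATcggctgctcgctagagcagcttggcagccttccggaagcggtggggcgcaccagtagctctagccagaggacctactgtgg
Ormdl2: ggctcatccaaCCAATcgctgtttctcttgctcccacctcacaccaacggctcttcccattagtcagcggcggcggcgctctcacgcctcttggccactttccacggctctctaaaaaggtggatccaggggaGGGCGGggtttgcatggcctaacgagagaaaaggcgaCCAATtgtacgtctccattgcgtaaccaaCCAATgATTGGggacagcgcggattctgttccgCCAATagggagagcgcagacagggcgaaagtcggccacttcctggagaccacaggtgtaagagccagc
Ormdl3: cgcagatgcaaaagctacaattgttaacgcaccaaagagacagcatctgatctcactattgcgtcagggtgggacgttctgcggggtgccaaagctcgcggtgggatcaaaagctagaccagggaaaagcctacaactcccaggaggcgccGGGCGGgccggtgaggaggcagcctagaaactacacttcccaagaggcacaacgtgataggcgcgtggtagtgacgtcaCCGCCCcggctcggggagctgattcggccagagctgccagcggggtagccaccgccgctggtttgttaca
Smpd1: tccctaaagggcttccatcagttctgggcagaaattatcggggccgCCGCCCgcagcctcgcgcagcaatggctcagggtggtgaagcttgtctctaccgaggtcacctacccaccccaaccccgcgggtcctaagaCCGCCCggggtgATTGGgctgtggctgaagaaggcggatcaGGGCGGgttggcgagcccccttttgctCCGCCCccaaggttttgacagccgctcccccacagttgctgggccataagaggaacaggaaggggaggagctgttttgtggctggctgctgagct
Gba2: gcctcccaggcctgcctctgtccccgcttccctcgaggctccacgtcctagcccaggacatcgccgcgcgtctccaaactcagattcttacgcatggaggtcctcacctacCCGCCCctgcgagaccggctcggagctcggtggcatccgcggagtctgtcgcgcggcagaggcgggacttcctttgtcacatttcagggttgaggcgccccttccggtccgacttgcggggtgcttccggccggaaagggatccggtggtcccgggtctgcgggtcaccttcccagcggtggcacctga
Ormdl2 has 5 CCAAT boxes, Ormdl1 has 2, and Ormdl3 has 0. All 5 windows hold a GC box, with 4 in Smpd1. Of 34 members with a promoter in the RefSeq table, 13 (38.2%) held a CCAAT box, against 37.9% of 27025 promoters. A GC box was in 26 of the 34 (76.5%), against 35.9% of all promoters and 46.3% of the 17492 that belong to protein-coding genes. The letters of the interferon-stimulated response element (GAAANNGAAA) were in 0 of the 34, against 3.49% of all promoters. Those of the gamma-activated site (TTCNNNGAA) were in 3 (Kdsr, Cert1 and Asah2), or 8.82%, against 8.47%. The E-box CACGTG, whose core is shared by the lysosomal gene motif, was in 5 (14.7%: Degs1, Cers6, Cers2, Glb1 and Smpd2), against 7.24%. The sterol element TCACNCCAC was in 0, against 1.22%. A match describes letters in this window and says nothing of binding.

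**Figure D2:**
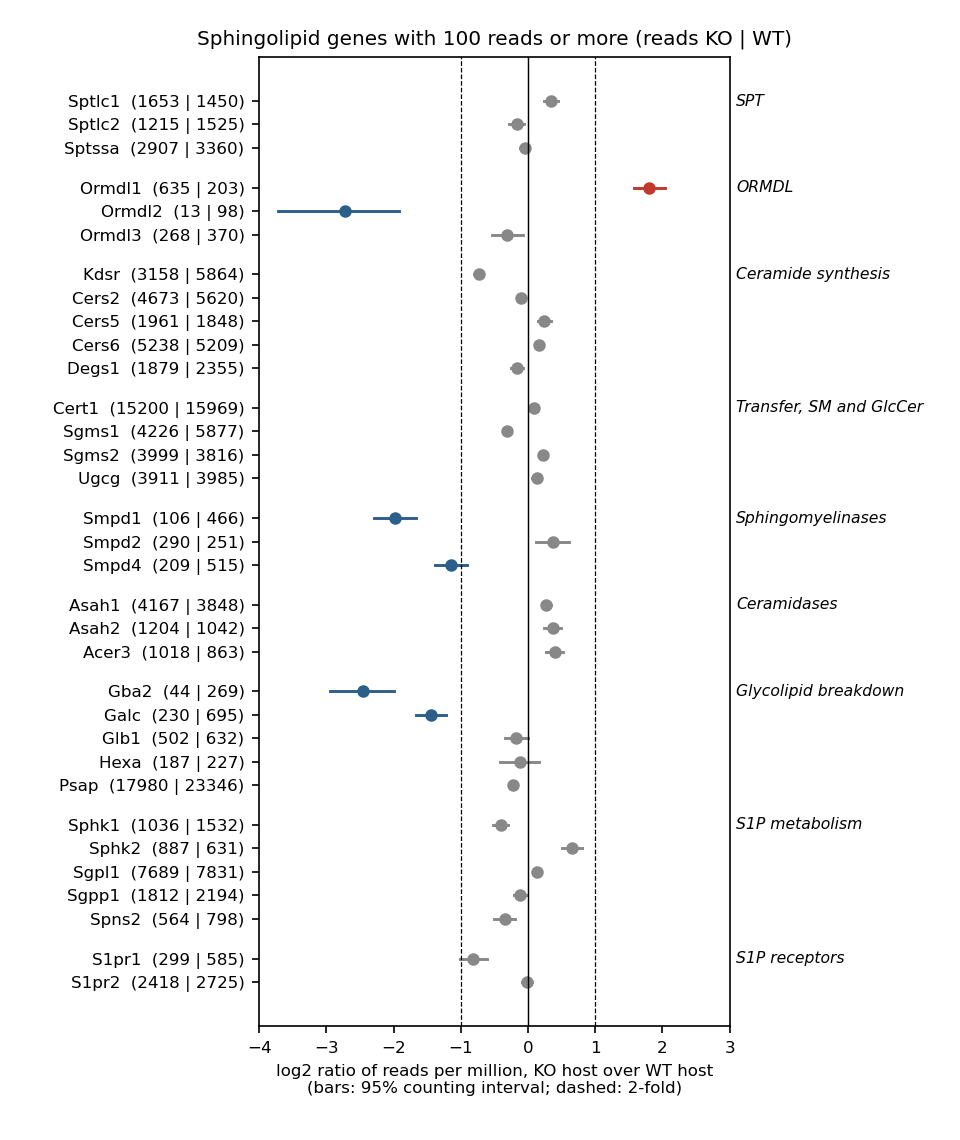
Ratio of RPM, KO host over WT host, on a log2 axis for the 33 members with 100 reads or more, grouped by role (SM, sphingomyelin; GlcCer, glucosylceramide), with 95% counting intervals as bars and the reads in the KO-host and WT-host libraries in parentheses. Ormdl1 is the 1 member right of the dashed 2-fold line, 5 members lie left of the other, and the enzymes that make ceramide sit between.

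Serine palmitoyltransferase, the enzyme that starts the pathway, had all 3 of its measured subunit genes within 2-fold. Sptlc1, which anchors the complex, had 1653 reads in the library from the KO host and 1450 in the library from the WT host, a ratio of 1.27 (1.18 to 1.36). Sptlc2, the catalytic subunit, had 1215 reads in the KO-host library and 1525 in the WT-host library (0.888, 0.823 to 0.958). Sptssa, a small activating subunit, had 2907 reads in the KO-host library and 3360 in the WT-host library (0.965, 0.918 to 1.01). Sptlc1 thus lay above 1 and Sptlc2 below it. The summed level of the 3 genes was 247.0 RPM in the KO-host library and 243.0 RPM in the WT-host library.

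Of the enzymes that finish ceramide, Kdsr was farthest from equal. Kdsr, which reduces the keto intermediate left by serine palmitoyltransferase, had 3158 reads in the library from the KO host and 5864 in the library from the WT host. Its ratio of 0.60 (0.575 to 0.627) was the lowest among the 23 members with 1000 reads or more. The ceramide synthases differ in the chain length they attach. Cers2, which favours very long chains, had 4673 reads in the KO-host library and 5620 in the WT-host library, a ratio of 0.927 (0.892 to 0.964). Its span overlaps Setdb1 on the other strand. Cers5 and Cers6, which favour long chains such as palmitate, both had ratios above 1. Cers5 had 1961 reads in the KO-host library and 1848 in the WT-host library (1.18, 1.11 to 1.26), and Cers6 had 5238 in the KO-host library and 5209 in the WT-host library (1.12, 1.08 to 1.17). Per exon length, Cers2 was at 3.13 times Cers5 and 2.84 times Cers6 in the KO-host library, and at 4.0 and 3.44 times in the WT-host library. Degs1, the desaturase that yields ceramide, had 1879 reads in the KO-host library and 2355 in the WT-host library (0.890, 0.837 to 0.946). On the log2 scale Cers2 was at -0.11 and Cers6 at 0.16, inside the quartiles of all genes with 10000 reads or more, which were -0.18 and 0.19. Cers5, at 0.24, and Degs1, at -0.17, lay inside the quartiles of the class from 1000 to 10000 reads, which were -0.39 and 0.25. Kdsr, in the same class at -0.74, lay below the lower quartile.

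The genes of ceramide transfer and of complex sphingolipid synthesis were all within 2-fold. Cert1, the protein that carries ceramide to the Golgi for sphingomyelin synthesis, had 15200 reads in the library from the KO host and 15969 in the library from the WT host, a ratio of 1.06 (1.04 to 1.09). The sphingomyelin synthases went opposite ways by small amounts. Sgms1, the Golgi enzyme, had 4226 reads in the KO-host library and 5877 in the WT-host library (0.802, 0.770 to 0.834). Sgms2, which also works at the plasma membrane, had 3999 reads in the KO-host library and 3816 in the WT-host library (1.17, 1.12 to 1.22). Ugcg, which commits ceramide to glucosylceramide, had 3911 reads in the KO-host library and 3985 in the WT-host library (1.09, 1.05 to 1.14). Per exon length, Sgms1 was at 1.33 times Sgms2 in the KO-host library and 1.94 times in the WT-host library.

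Among the sphingomyelinases, which release ceramide from sphingomyelin, 2 of 3 were lower in the library from the KO host. Smpd1 (ENSMUSG00000037049, chromosome 7, 105203567 to 105207597, plus strand) encodes acid sphingomyelinase, the lysosomal enzyme missing in Niemann-Pick disease types A and B. It had 106 reads in the KO-host library and 466 in the WT-host library, a ratio of 0.254 (0.203 to 0.314). On the deposited scale its FPKM was 1.12 in the KO-host library and 4.44 in the WT-host library, a log2 difference of -1.36. Smpd4 (ENSMUSG00000005899, chromosome 16, 17437218 to 17462693, plus strand), a neutral sphingomyelinase of the endoplasmic reticulum and nuclear envelope, had 209 reads in the KO-host library and 515 in the WT-host library. Its ratio was 0.452 (0.383 to 0.532), so its interval reaches to the other side of 2-fold. Smpd2, another neutral sphingomyelinase, had 290 reads in the KO-host library and 251 in the WT-host library (1.29, 1.08 to 1.53). Its span overlaps Mical1 on the other strand. Together the 3 sphingomyelinase genes were at 25.9 RPM in the KO-host library and 47.3 RPM in the WT-host library.

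The 3 ceramidases with 100 reads or more, enzymes that split ceramide to sphingosine, had ratios above 1. Asah1, the lysosomal acid ceramidase, had 4167 reads in the library from the KO host and 3848 in the library from the WT host, a ratio of 1.21 (1.16 to 1.26). Asah2, the neutral enzyme, had 1204 reads in the KO-host library and 1042 in the WT-host library (1.29, 1.18 to 1.4). Acer3, an alkaline ceramidase, had 1018 reads in the KO-host library and 863 in the WT-host library (1.32, 1.20 to 1.44), with shared fractions among them. These 3 were within 2-fold. Acer2, the Golgi alkaline ceramidase, was listed at 0 in the KO-host library and had 71 reads in the WT-host library, which is under the minimum. Asah1 was the most abundant ceramidase per exon length, at 16.9 times Acer3 in the KO-host library and 18.4 times in the WT-host library.

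Of the genes that break down glycosphingolipids, Gba2 and Galc were lower in the library from the KO host. Gba2 (ENSMUSG00000028467, chromosome 4, 43566928 to 43578874, minus strand) encodes the non-lysosomal glucosylceramidase. It had 44 reads in the KO-host library and 269 in the WT-host library, a ratio of 0.182 (0.129 to 0.252). Its span overlaps Creb3 and Rgp1 on the other strand, and the labels do not say whether counting used strand. Creb3 had 981 reads in the KO-host library and 704 in the WT-host library, and Rgp1 had 817 in the KO-host library and 852 in the WT-host library. Whether the overlaps affected the reads of Gba2 was not tested. Galc (ENSMUSG00000021003, chromosome 12, 98168553 to 98225719, minus strand), the lysosomal galactosylceramidase missing in Krabbe disease, had 230 reads in the KO-host library and 695 in the WT-host library. Its ratio was 0.369 (0.316 to 0.429), from whole reads and with no overlapping listed gene.

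The other lysosomal members were closer to equal. Psap, the precursor of the saposins that present glycolipids to the hydrolases, had the highest level per exon length of all members, with 17980 reads in the library from the KO host and 23346 in the library from the WT host (0.859, 0.842 to 0.876). Glb1, the lysosomal beta-galactosidase, had 502 reads in the KO-host library and 632 in the WT-host library (0.886, 0.786 to 0.997). Its span overlaps Tmppe on the same strand. Hexa, the alpha subunit of beta-hexosaminidase, had 187 reads in the KO-host library and 227 in the WT-host library (0.918, 0.753 to 1.12). Most lysosomal members thus lay below 1: Smpd1 and Galc were lower past 2-fold, and Psap, Glb1 and Hexa were within 2-fold. Only Asah1 lay above 1.

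**Figure D3:**
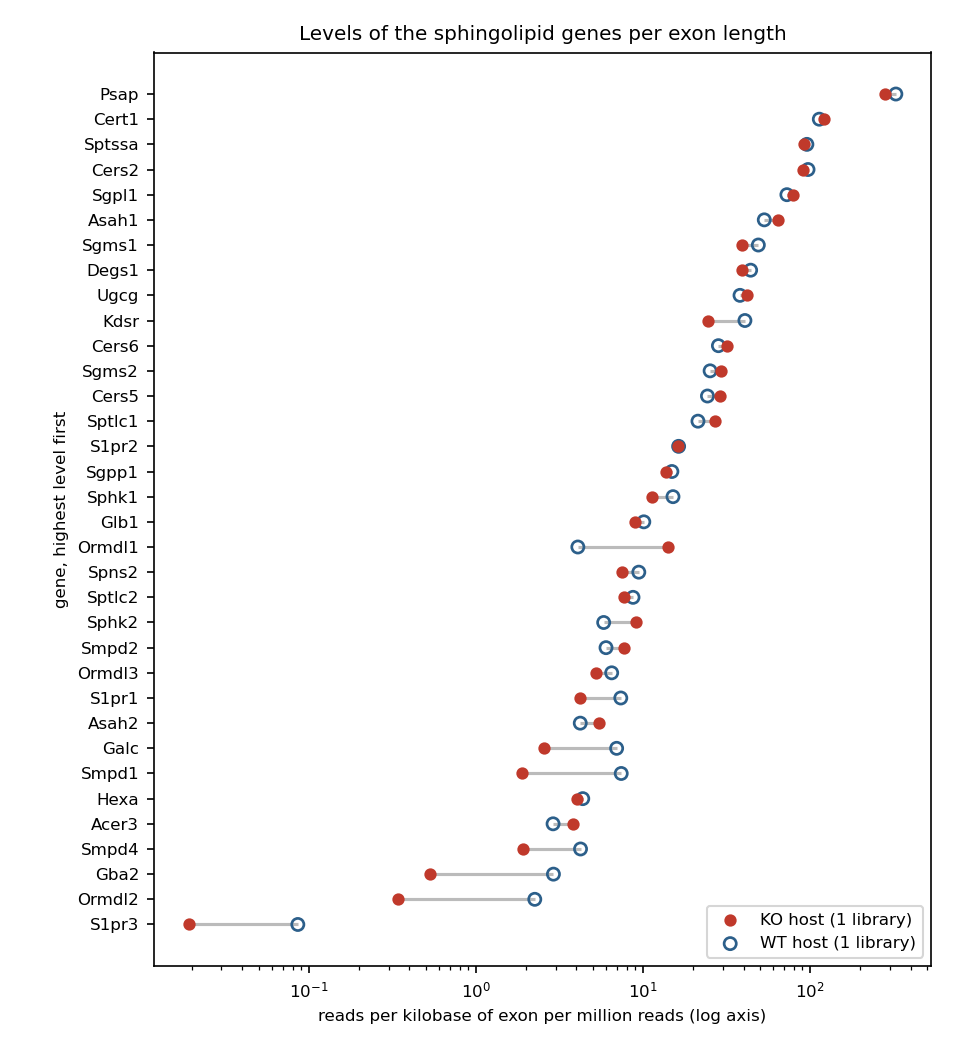
Level of each member in reads per kilobase of exon per 1000000 reads on a log axis, highest first, in the KO-host library (filled red) and the WT-host library (open blue); Acer2, listed at 0 in the KO-host library, is not drawn. Psap, Cert1, Sptssa and Cers2 lead in both libraries, and the widest gaps lie toward the low end, at Ormdl1, Smpd1, Galc, Gba2, Ormdl2 and S1pr3.

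The genes that make, remove and export S1P were all within 2-fold. The sphingosine kinases lay on opposite sides of 1. Sphk1, the cytosolic kinase often raised in tumours, had 1036 reads in the library from the KO host and 1532 in the library from the WT host, a ratio of 0.754 (0.696 to 0.816), with shared fractions. Sphk2, which is found in the nucleus and mitochondria, had 887 reads in the KO-host library and 631 in the WT-host library (1.57, 1.41 to 1.74). Sphk2 overlaps Rpl18 and Dbp on the other strand. Per exon length, Sphk1 was at 1.25 times Sphk2 in the KO-host library and 2.60 times in the WT-host library. Sgpl1, the lyase that destroys S1P irreversibly, had 7689 reads in the KO-host library and 7831 in the WT-host library (1.09, 1.06 to 1.13), the most of this group. Sgpp1, a phosphatase that returns S1P to sphingosine, had 1812 reads in the KO-host library and 2194 in the WT-host library (0.921, 0.865 to 0.980). Spns2, an S1P exporter, had 564 reads in the KO-host library and 798 in the WT-host library (0.788, 0.706 to 0.879), and its span overlaps the well expressed Mybbp1a.

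Among the receptors, S1pr2 was the most abundant and was at nearly the same level in both libraries, while S1pr1 was lower in the library from the KO host without reaching 2-fold. S1pr2, which restrains cell migration, had 2418 reads in the KO-host library and 2725 in the WT-host library, a ratio of 0.989 (0.936 to 1.05). S1pr1, which favours migration and is a main S1P receptor of endothelium and lymphocytes, had 299 reads in the KO-host library and 585 in the WT-host library (0.570, 0.494 to 0.656). Per exon length, S1pr2 was at 3.85 times S1pr1 in the KO-host library and 2.22 times in the WT-host library. S1pr3 had 2 reads in the KO-host library and 10 in the WT-host library, too few for a comparison.

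Host cells could contribute to these levels, since the gate removes only CD45-positive cells. In bulk RNA, fewer cells of a type and less RNA per cell cannot be told apart. Nor can marker reads from host cells be told apart from those of tumour cells. Of 18 endothelial markers 7 are in the table, and they summed to 32.5 RPM in the library from the KO host and 56.0 RPM in the library from the WT host. Of the 6 with 100 reads or more, 3 were 2-fold lower and 1 was higher. The higher 1 was Cdh5, with 146 reads in the KO-host library and 1 in the WT-host library. Over all genes with 100 reads or more, 8.91% were higher and 12.0% lower, and between 100 and 1000 reads 18.5% and 24.8%. None of the 7 was at 0 in either library. Of 12 pericyte and smooth muscle markers 6 are in the table, at 94.2 RPM in the KO-host library and 425.3 RPM in the WT-host library. Most of these reads were of Pdgfrb, with 1691 in the KO-host library and 9206 in the WT-host library. All 4 markers with 100 reads or more were 2-fold lower, against 12.0% of all genes, and Cspg4 among them was listed at 0 in the KO-host library. Abcc9, under 100 reads, went the other way, with 55.7 reads in the KO-host library and 1 in the WT-host library. Fibroblast markers (9 of 12) were at 1082 RPM in the KO-host library and 1369 RPM in the WT-host library. Of the 7 with 100 reads or more, 1 was 2-fold higher and 2 were lower. Mfap4, under 100 reads, was listed at 0 in the WT-host library. Macrophage markers (14 of 14) were at 233.5 RPM in the KO-host library and 197.1 RPM in the WT-host library, with 2 of 9 at 100 reads or more 2-fold higher and 0 lower. Pan-leukocyte markers (15 of 16) were at 33.2 RPM in the KO-host library and 37.3 RPM in the WT-host library, with 1 of 7 at 100 reads or more 2-fold higher and 1 lower. Mammary epithelial markers (8 of 13) were at 352.2 RPM in the KO-host library and 213.4 RPM in the WT-host library. Of the 7 with 100 reads or more, 4 were 2-fold higher and 0 lower, against 8.91% and 12.0% of all genes. Elf5, under 100 reads, went the other way, listed at 0 in the KO-host library and with 45 reads in the WT-host library. The part of these cell types in the values of S1pr1, Smpd1, Galc, Gba2, Smpd4 or the ORMDL genes was not tested. Mtdh itself had 23130 reads in the KO-host library and 28376 in the WT-host library (0.909, 0.893 to 0.925). The injected tumour cells carry the gene in both, and the part of host cells in these reads was not tested.

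Other genes of the pathway, 50 symbols chosen from general knowledge with earlier results of these data known, lay on both sides of a ratio of 1. Of the 37 in the table, 30 had 100 reads or more, with 2 counted as 2-fold higher, 2 as lower and 26 between. Their median log2 ratio was 0.02, with 16 above 0 and 14 below. On the deposited scale 0 of 16 passed a difference of 1 either way.

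The lactosylceramide synthases were the clearest contrast in that list. B4galt6 had 87 reads in the library from the KO host and 875 in the library from the WT host, a ratio of 0.111 (0.0879 to 0.138). B4galt5, its paralog for the same reaction, had 2216 reads in the KO-host library and 1365 in the WT-host library (1.81, 1.69 to 1.94) and was chosen after its values were seen. Plekha8, which transports glucosylceramide in the Golgi, had 1512 reads in the KO-host library and 760 in the WT-host library (2.22, 2.03 to 2.42), and its span overlaps Fkbp14. Plpp3, a membrane phosphatase that dephosphorylates lipid phosphates such as S1P, had 447 reads in the KO-host library and 210 in the WT-host library (2.37, 2.01 to 2.81). Hacd2, a dehydratase of fatty acid elongation, had 42 reads in the KO-host library and 108 in the WT-host library (0.434, 0.296 to 0.625).

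Among the 5 of these genes with the most reads, Arsa and Samd8 were farthest from equal. Arsa, the lysosomal arylsulfatase that acts on sulfatide, had 3456 reads in the library from the KO host and 7624 in the library from the WT host, a ratio of 0.505 (0.485 to 0.526), just inside 2-fold. Samd8, a relative of the sphingomyelin synthases that makes ceramide phosphoethanolamine, had 3450 reads in the KO-host library and 2254 in the WT-host library (1.71, 1.62 to 1.80). Rtn4 had 18645 reads in the KO-host library and 22440 in the WT-host library (0.926, 0.909 to 0.945), and its span overlaps Eml6. St3gal5, which makes the ganglioside GM3, had 2239 reads in the KO-host library and 2500 in the WT-host library (0.999, 0.943 to 1.06). Aldh3a2, a fatty aldehyde dehydrogenase that acts after the S1P lyase, had 1998 reads in the KO-host library and 1714 in the WT-host library (1.3, 1.22 to 1.39).

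**Figure D4:**
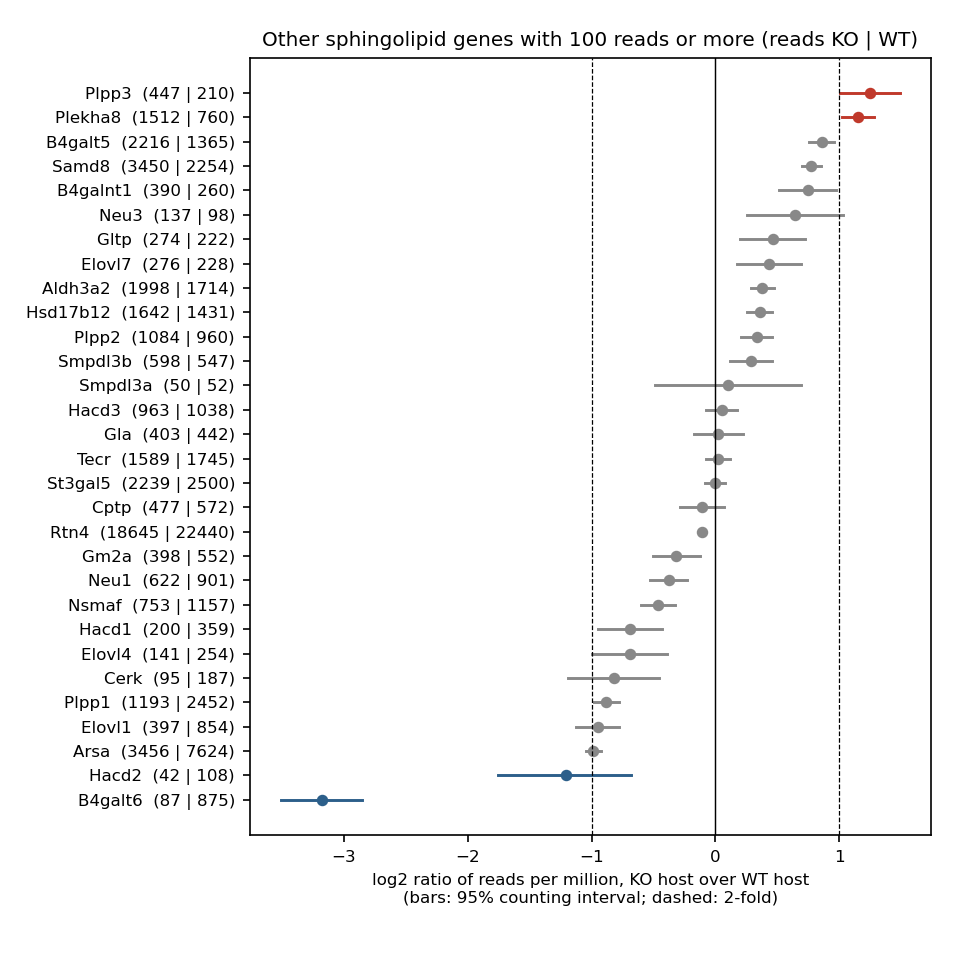
Ratio of RPM, KO host over WT host, on a log2 axis for the 30 other sphingolipid genes with 100 reads or more, with 95% counting intervals as bars and reads in the KO-host and WT-host libraries in parentheses. Plpp3 and Plekha8 lie right of the dashed 2-fold line, Hacd2 and B4galt6 left of the other, and Arsa lies just inside it.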

How the data were processed

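The authors deposited 1 table of log2 values, described in its name as log2 of FPKM + 1, with 1 column per library. The submitters' processing notes name STAR 2.7.8a, Partek and the build mm39. The role of each, the annotation release, strand handling and the fate of multiply mapped reads are not stated in the labels. Each back-transformed value times the listed span in kilobases sums to 1000000 per library.

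From these values RPM were computed and each library's read total was found as the smallest total at which low values become whole reads. This gave 23381849 reads for the KO host and 26069370 for the WT host; 83.4% and 84.9% of values under 1000 reads were whole within 0.1 read. The step was tested on simulated data. Ratios have exact (Clopper-Pearson) conditional binomial 95% intervals of rounded reads. Exon lengths are unions of coding exons in GENCODE M21, used as lengths only; they overstate the length of genes with many isoforms, and level ratios between genes carry that error. Python 3.11.15, numpy 2.4.6, pandas 2.3.3 and scipy 1.17.1 were used.

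A gene was counted at a 2-fold read ratio with 100 reads or more, or at a log2 difference of 1 with a mean of 1 or more. All members are named; of the other sphingolipid genes, those past 2-fold and the 5 with the most reads. Some genes of that list are not reported here and are in none of its counts. The members and lists were chosen with earlier results of these data known. Alternatives were other scalings, read minimums, added constants and filters.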

Additional observations from a re-analysis of the deposited data

How the results depend on the processing

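No paired analysis was possible because each host genotype has 1 library. Scaling to the median ratio, to the trimmed mean of M values or to the upper quartile raised log2 ratios by 0.06, 0.06 and 0.04 and changed 0 of the 99 member calls made under them; 15 values left their counting interval, and 0 of the 6 counted members changed sign. Of the rest, 2 with ratios near 1 moved to the other side of it in 5 values: Sptssa, at 0.01 under each of the first pair of scalings, and S1pr2, at 0.05, 0.04 and 0.02. The median log2 read ratio of the members was between -0.12 and -0.02 under all alternatives, and the median deposited difference between -0.13 and -0.04. With 1000 reads or more required, 0 members were counted as higher and 0 as lower, since all 6 counted members have fewer. Among members that overlap no other listed gene, an alternative chosen after seeing the data, 1 was higher and 3 were lower, without Gba2 and Ormdl2. On the deposited scale, an added constant of 0.1 counted 1 member as higher (Ormdl1), and 0 were lower with 5 added or with a mean of at least 3. For the other sphingolipid genes, a minimum of 10 reads gave 6 higher and 5 lower, and 1000 reads gave 1 and 0. Depth limits the low genes most, and without a second library the spread between tumours is unknown.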

Other observations

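Some sphingolipid genes under 100 reads over both libraries had most of their reads in 1 of them. Degs2, a desaturase and hydroxylase of skin ceramides, had 72 reads in the KO-host library and was listed at 0 in the WT-host library. Its span overlaps Evl. Cers3, the ceramide synthase of skin and testis, had 1 read in the KO-host library and 55 in the WT-host library. Mfsd2b, an S1P exporter of red cells and platelets, was listed at 0 in the KO-host library and had 15 reads in the WT-host library. Mfsd2a, a transporter of lysophospholipids, had 8 reads in the KO-host library and 45 in the WT-host library. A4galt and B3galnt1, which act in succession in globoside synthesis, were also low: A4galt had 15.7 reads in the KO-host library and 4.9 in the WT-host library, and B3galnt1 had 14 in the KO-host library and 2 in the WT-host library. These genes were chosen after their values were seen. Of all 1889 genes under 100 reads, 809 had 0.1 read or less in 1 of the libraries, and no comparison is drawn.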
